A study of Oryza sativa with 16 samples.

Results

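The 7 loci described here are homeodomain-leucine zipper class I (HD-Zip I) genes of rice, among 55801 loci in the flag-leaf count table. They were chosen by their locus identifiers, as a list that includes OsHOX6, OsHOX22 and OsHOX24. Whether the list holds every rice gene of the class was not checked. The loci were LOC_Os02g43330, LOC_Os03g08960, LOC_Os03g10210, LOC_Os04g45810, LOC_Os07g39320, LOC_Os09g29460 and LOC_Os09g35910. The count table carries identifiers without gene names, and 0 of its loci matched the RefSeq gene table. That table places OsHOX24 on chromosome 2 and OsHOX22 on chromosome 4, where the list has a single locus each. LOC_Os02g43330 is therefore called OsHOX24 and LOC_Os04g45810 is called OsHOX22 below. OsHOX6 lies on chromosome 9, where the list has 2 loci, and was not assigned to either. The remaining loci are given by identifier alone, and the class of the 7 loci was taken as given, since the files hold no annotation against which it could be checked.

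Flag leaves were sampled from Swarna, a drought-sensitive indica variety, and from DTY-IL, a single drought-tolerant introgression line with segments of the donor N22 in a Swarna background. Control plants of both genotypes were well watered in pots. Plants under reproductive-stage drought stress (RDS) were kept at 75% of field capacity for 9 days and then at 50% for 3 days, and leaves were taken on day 12. Each of the 4 genotype-treatment groups had 4 biological replicates, which gave 16 libraries.

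HD-Zip proteins are transcription factors found in plants, in which a homeodomain that binds DNA is followed by a leucine zipper through which a pair of proteins joins. Class I members are best known for responses to water deficit, abscisic acid (ABA) and light, and for the growth of leaves and panicles. OsHOX22 and OsHOX24 are stress-inducible members of the family in rice and belong to the clade of the ABA-induced Arabidopsis factors ATHB7 and ATHB12.

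Library totals ranged from 14250527 to 19367077 estimated counts. The counts of the 20 most abundant genes took 17.9% to 22.2% of a control library and 4.16% to 12.4% of a drought library, and the scaling factors (TMM, trimmed mean of M-values) ranged from 0.762 to 0.906 in control and from 1.09 to 1.31 in drought libraries. Levels are therefore given as CPM on library totals multiplied by these factors. They are not corrected for gene length, so each locus was compared with itself across groups and no locus was ranked above another by level. In whole leaves, fewer cells that express a gene and less RNA per cell cannot be told apart.

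A total of 10 or more counts was reached by 6 of the 7 loci, and these were tested. A locus was called when its edgeR adjusted p was 0.05 or less and its level changed by 1 or more on the log2 scale in either direction. Of the 6 tested loci, 5 were called for RDS in DTY-IL, against 23.5% of the 28283 genes tested, with 4 higher and 1 lower, against 12.0% and 11.5%. In Swarna 4 were called, against 32.6% of all genes, with 4 higher and 0 lower, against 15.2% and 17.3%. By the adjusted p alone 5 passed in each genotype, against 40.3% and 49.5% of all genes. The median log2 change of the 6 loci was 1.83 in DTY-IL and 1.41 in Swarna, while that of all genes was 0.03 and 0.06. The CPM values of drought and control libraries were fully apart for 3 of the 6 loci in DTY-IL (35.0% of all genes) and for 5 in Swarna (46.8% of all genes). Of these 6 loci, 1 (LOC_Os03g10210) had 0 counts in every control library and passed the count filter through its drought libraries alone. It could only rise, yet it counts among the loci called in both genotypes, those fully apart in Swarna and the medians. Without it the middle log2 change was that of OsHOX22 in DTY-IL (1.31) and of LOC_Os03g08960 in Swarna (1.01).

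**Figure D1:**
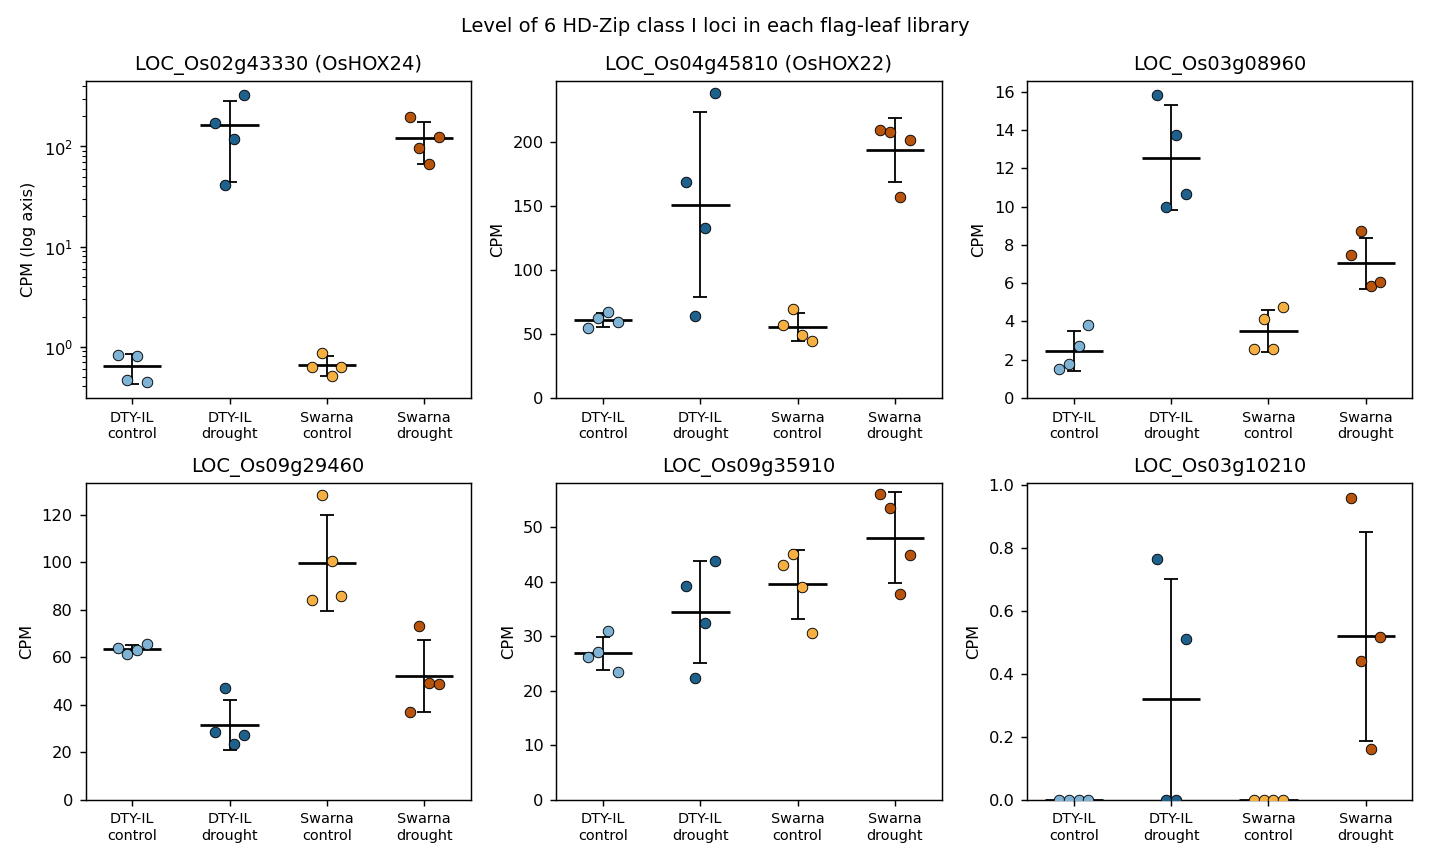
Level of 6 HD-Zip I loci in CPM (vertical axes, logarithmic for OsHOX24 only and from 0 for the others) in the 4 groups. Each point is a library, the horizontal line is the group mean and the bar is 1 SD (n = 4), cut at 0; OsHOX24 lies below 1 CPM in every control library and above 40 CPM in every drought library.

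OsHOX24 changed most among the tested loci of the list. Under control it was close to silent, with 12, 7, 14 and 6 counts in the DTY-IL libraries and 10, 11, 7 and 8 in the Swarna libraries. Those counts correspond to 0.635 CPM ± 0.208 in DTY-IL and 0.661 CPM ± 0.150 in Swarna (SD, n = 4). Under RDS the 4 DTY-IL libraries held 170, 41.5, 118 and 324 CPM, a mean of 163 CPM ± 119 (SD, n = 4). The 4 Swarna libraries under RDS held 195, 97.4, 66.6 and 126 CPM, a mean of 121 CPM ± 54.8 (SD, n = 4). All drought libraries of both genotypes thus lay far above all control libraries, although the drought libraries of a genotype differed among themselves several-fold.

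The fitted log2 change of OsHOX24 was 7.98 ± 0.61 in DTY-IL (SE, edgeR adjusted p 1.85e-08), a 252-fold rise that ranked 44 of 28283 genes. In Swarna it was 7.51 ± 0.61 (SE, edgeR adjusted p 1.64e-08), a 182-fold rise that ranked 94. The difference between the genotypes in the log2 change was 0.47, with a 95% interval from −1.40 to 2.33 (edgeR interaction adjusted p 0.829). Under RDS alone DTY-IL minus Swarna was 0.43 on the log2 scale, with an interval from −0.43 to 1.29 (edgeR adjusted p 0.568), and without DTY-IL drought 4 it was −0.14. An interval this wide leaves room for a difference of more than 2-fold in the level under RDS.

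OsHOX22 was well detected before stress. The control libraries of DTY-IL held 54.7, 62.4, 67.2 and 59.4 CPM, and those of Swarna held 57.2, 69.6, 48.9 and 44.8 CPM. Under RDS the Swarna libraries held 209, 208, 157 and 201 CPM, all above every control library. The DTY-IL libraries under RDS held 169, 64.0, 133 and 238 CPM, so that 3 lay above the controls and DTY-IL drought 2 lay within their range. The SD of OsHOX22 under RDS was 48.0% of the mean in DTY-IL and 12.8% in Swarna.

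The log2 change of OsHOX22 was 1.81 ± 0.27 in Swarna (SE, edgeR adjusted p 2.38e-05) and 1.31 ± 0.27 in DTY-IL (SE, edgeR adjusted p 0.000783). Without DTY-IL drought 2 the DTY-IL change was 1.56 (edgeR adjusted p 4.55e-06). That was the highest of the 8 fits without a single library, and the lowest was 1.00, at the fold threshold. The change in DTY-IL minus that in Swarna was −0.50, with a 95% interval from −1.29 to 0.28 (edgeR interaction adjusted p 0.484). A test of whether the change exceeded a log2 fold change of 1 (edgeR glmTreat) ended the call of OsHOX22 in DTY-IL (adjusted p 0.226).

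LOC_Os03g08960 was the only tested member called in the interaction of genotype and treatment, and that call was borderline. It held 1.52, 1.79, 2.74 and 3.80 CPM in the DTY-IL control libraries and 2.58, 4.11, 2.56 and 4.73 CPM in the Swarna control libraries. Under RDS it reached 15.8, 9.98, 13.7 and 10.6 CPM in DTY-IL and only 7.49, 8.75, 5.87 and 6.04 CPM in Swarna. Every DTY-IL drought library was above every Swarna drought library, whereas the control libraries of the genotypes overlapped.

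The log2 change of LOC_Os03g08960 was 2.35 ± 0.28 in DTY-IL (SE, edgeR adjusted p 3.33e-06), a 5.10-fold rise. In Swarna it was 1.01 ± 0.27 (SE, edgeR adjusted p 0.00490), a 2.02-fold rise. The difference of the changes was 1.34 ± 0.39 (SE, 95% interval 0.52 to 2.15, edgeR interaction adjusted p 0.0482), so that 1 of the 6 tested loci was called in the interaction, against 4.91% of all genes. The call was lost with a replicate block by the title number (edgeR adjusted p 0.0658) or the description number (0.0524), with limma-voom (adjusted p 0.0518), with library size alone (edgeR adjusted p 0.0927) and with glmTreat (edgeR adjusted p 0.909). It was also lost without any 1 of 11 libraries, namely DTY-IL control 1 and 2, DTY-IL drought 1, 3 and 4, Swarna control 2 and 4 and the 4 Swarna drought libraries, with edgeR adjusted p from 0.0538 to 0.102 and log2 differences from 1.16 to 1.46. The Swarna change lies at the fold threshold and was under it, at 0.85 to 0.95, without Swarna control 1 or 3 or Swarna drought 1 or 2.

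**Figure D2:**
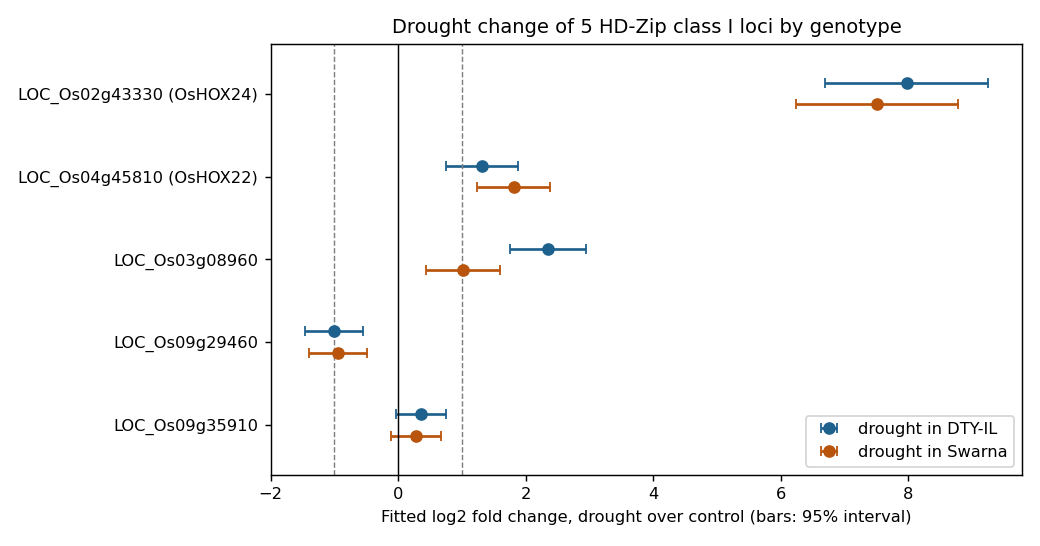
Fitted log2 fold change of drought over control (horizontal axis) for 5 HD-Zip I loci in DTY-IL and Swarna. Points are edgeR estimates, bars are 95% intervals and dashed lines mark a log2 fold change of 1 in either direction; the intervals of the genotypes do not overlap for LOC_Os03g08960 (1.76 to 2.94 in DTY-IL and 0.44 to 1.59 in Swarna) and overlap for the other 4 loci.

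LOC_Os09g29460 was the only tested member with a lower level under RDS. It was steady in DTY-IL control, at 64.0, 61.3, 63.2 and 65.6 CPM, and held 28.7, 47.2, 23.4 and 27.4 CPM under RDS. In Swarna it was at 84.1, 128, 100.5 and 86.1 CPM under control and at 36.9, 73.2, 49.2 and 48.8 CPM under RDS. The drought libraries lay below the control libraries of the same genotype in both genotypes.

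The log2 level of LOC_Os09g29460 fell by 1.01 ± 0.22 in DTY-IL (SE, edgeR adjusted p 0.00128). In Swarna the change was −0.94 ± 0.22 (SE, edgeR adjusted p 0.00149), past the p threshold and short of the fold threshold. Both estimates sit at the fold threshold, so that the call in DTY-IL and its absence in Swarna do not separate the genotypes (difference −0.07, 95% interval −0.71 to 0.57, edgeR interaction adjusted p 0.948). In DTY-IL the log2 change was −0.99 without control 4, −0.89 without drought 3 and −0.94 without drought 4, and in Swarna it passed the fold threshold without control 1 (−1.01), control 4 or drought 2 (−1.19). When libraries were scaled by their totals alone, the median log2 change of all genes moved to 0.43 in DTY-IL and 0.70 in Swarna, and LOC_Os09g29460 was then at −0.60 in DTY-IL and at −0.27 in Swarna (edgeR adjusted p 0.303). Relative to the median of all genes it was at −1.04 and −0.99 with TMM factors and at −1.03 and −0.97 with totals alone.

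LOC_Os09g35910 was expressed in all groups and did not pass the test for drought. The DTY-IL libraries held 26.2, 27.0, 30.9 and 23.5 CPM under control and 39.3, 22.4, 32.5 and 43.8 CPM under RDS. The Swarna libraries held 43.2, 45.2, 39.1 and 30.7 CPM under control and 56.1, 53.6, 37.8 and 45.0 CPM under RDS. The groups overlapped in both genotypes, and in DTY-IL the drought libraries reached both above and below all control libraries. Its log2 change was 0.36 in DTY-IL (95% interval −0.04 to 0.75, edgeR adjusted p 0.138) and 0.28 in Swarna (95% interval −0.11 to 0.67, edgeR adjusted p 0.221). Both intervals exclude a change of 2-fold. The lowest DTY-IL drought value, 22.4 CPM, again came from drought 2, and without that library the DTY-IL change was 0.52 (edgeR adjusted p 0.0185). That was the highest of the 8 fits without a single library, and the lowest was 0.22. With a replicate block by the description number the change was 0.59 in DTY-IL (edgeR adjusted p 0.00860) and 0.31 in Swarna (edgeR adjusted p 0.0771). With totals alone as the scaling, the changes were 0.75 and 0.93 (edgeR adjusted p 0.00297 and 0.000292), while relative to the median of all genes they stayed at 0.32 and 0.23.

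A pair of loci lay at the limit of detection in flag leaves. LOC_Os03g10210 had 0 counts in all 8 control libraries, where a count of 0 allows up to 3 counts, a mean of 0.200 CPM in DTY-IL and 0.221 CPM in Swarna. Under RDS it had 14, 0, 0 and 9 counts in DTY-IL and 20, 9, 3 and 10 counts in Swarna. It was thus read in every Swarna drought library and in only 2 of the 4 DTY-IL drought libraries. The mean level under RDS was 1.60 times that floor in DTY-IL and 2.35 times in Swarna. These ratios were not tested and leave out the spread of the drought libraries. The edgeR test of drought against control gave an adjusted p of 0.0367 in DTY-IL and 0.0148 in Swarna. With control at 0, a rise was the only change that the locus could show. The DTY-IL call was lost with limma-voom (adjusted p 0.158), with glmTreat (edgeR adjusted p 0.113), in a fit of the 2 DTY-IL groups alone (edgeR adjusted p 0.0783), and without any 1 of the 4 DTY-IL control libraries, DTY-IL drought 1 or DTY-IL drought 4 (edgeR adjusted p 0.0594 to 0.104). The level under RDS did not differ detectably between the genotypes (edgeR adjusted p 0.715).

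LOC_Os07g39320 had 9 counts over the 16 libraries and at most 2 in any of them. It was not tested, and at this depth no change of it was detectable.

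The members were ordered by their drought change, leaving out LOC_Os03g10210 and LOC_Os07g39320, which were under 1 CPM on average in every group. In DTY-IL the order was OsHOX24, LOC_Os03g08960, OsHOX22, LOC_Os09g35910 and LOC_Os09g29460. In Swarna OsHOX22 stood before LOC_Os03g08960, and the order was otherwise alike. For each pair of neighbours the difference in log2 CPM was taken within each library and compared between drought and control by an exact two-sided permutation test, in which 4 against 4 libraries give a p of 0.0286 at the lowest. Because the order came from the same libraries, the pairs and the direction of each difference were fixed by the values tested. The p-values of these pairs are therefore descriptive and no independent test of the order. OsHOX24 stood above the next member in both genotypes, by 5.10 ± 0.72 in DTY-IL and 5.37 ± 0.27 in Swarna (SE, exact permutation p 0.0286 in both, 0.0457 after Benjamini-Hochberg adjustment over 8 tests). OsHOX22 was above LOC_Os09g35910 by 0.84 ± 0.20 in DTY-IL (SE, exact permutation p 0.0286, adjusted 0.0457).

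OsHOX22 and LOC_Os03g08960 stood in opposite order in DTY-IL and Swarna, and this difference between the genotypes was not tested. In Swarna OsHOX22 was above LOC_Os03g08960 by 0.81 ± 0.28 (SE, exact permutation p 0.0286, adjusted 0.0457). In DTY-IL LOC_Os03g08960 was above OsHOX22 by 1.19 ± 0.46, which did not pass (SE, exact permutation p 0.0571, adjusted 0.0653). LOC_Os09g35910 was above LOC_Os09g29460 by 1.24 ± 0.27 in Swarna (SE, exact permutation p 0.0286, adjusted 0.0457) and by 1.37 ± 0.42 in DTY-IL (SE, exact permutation p 0.0571, adjusted 0.0653). LOC_Os03g08960 and LOC_Os09g35910 in Swarna were 0.73 ± 0.31 apart and did not pass either (SE, exact permutation p 0.0857).

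The library with the lowest change was the same for 4 of the 5 ordered members in each genotype. In DTY-IL, drought 2 had the lowest change of OsHOX24 (5.83 above the control mean in log2 CPM), of OsHOX22 (0.08), of LOC_Os03g08960 (2.05) and of LOC_Os09g35910 (−0.26), and the smallest fall of LOC_Os09g29460 (−0.43). DTY-IL drought 4 was the highest for OsHOX24 (8.79), OsHOX22 (1.97) and LOC_Os09g35910 (0.71), but not for LOC_Os03g08960 (2.15), which was highest in drought 1 (2.71). In Swarna, drought 3 was the lowest for the same 4 loci, at 6.44, 1.53, 0.78 and −0.05. Drought 1 was the highest there for OsHOX24 (7.99), OsHOX22 (1.94) and LOC_Os09g35910 (0.52), and LOC_Os03g08960 was highest in drought 2 (1.34). LOC_Os09g29460 did not follow there, with its smallest fall in drought 2 (−0.42) and −0.996 in drought 3.

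The response of other genes was smallest in DTY-IL drought 2 as well. Over the 4308 genes that rose in Swarna, the mean log2 change was 1.22 in DTY-IL drought 2 and 1.51 to 1.59 in the other 3 DTY-IL drought libraries, and over the 4904 genes that fell in Swarna it was −1.09 against −1.27 to −1.39. Over the 3389 genes that rose in DTY-IL it was 1.85 in Swarna drought 3 and 1.95 to 1.96 in the other 3 Swarna drought libraries, while over the 3252 genes that fell it was −2.16 in both drought 2 and drought 3 and −2.23 to −2.31 in the others. The part of this overall difference in the values of the listed loci was not tested. Without DTY-IL drought 2 the interaction of LOC_Os03g08960 was 1.43 (edgeR adjusted p 0.0416).

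**Figure D3:**
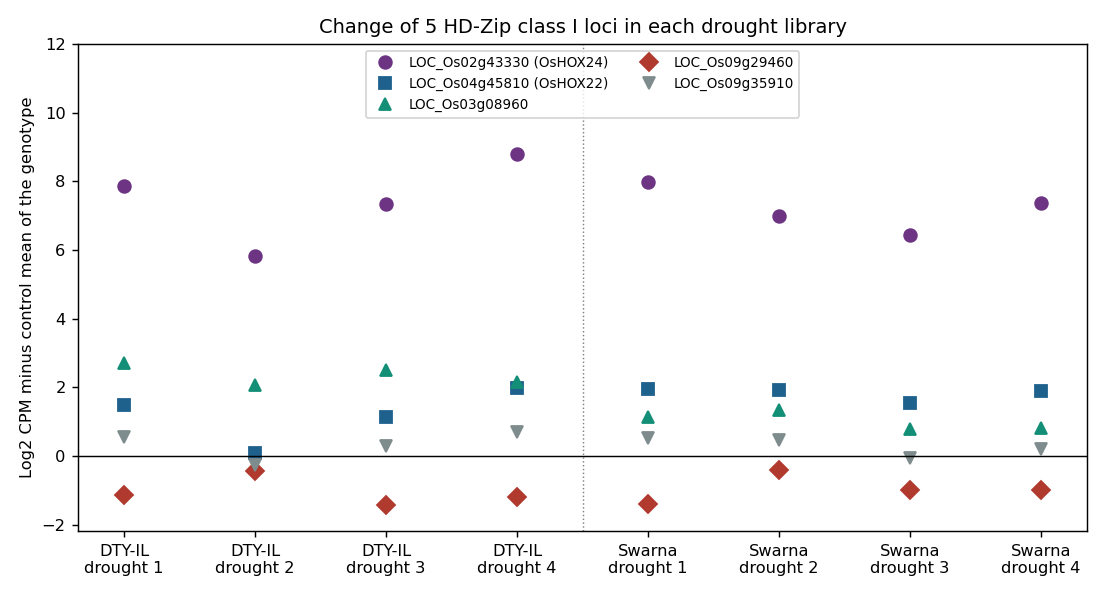
Change of 5 HD-Zip I loci in each of the 8 drought libraries (horizontal axis), as log2 CPM minus the mean of the 4 control libraries of the same genotype (vertical axis). Each symbol is a locus; DTY-IL drought 2 has the lowest value of OsHOX24 (5.83) and a value of OsHOX22 near 0 (0.08).

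Between the genotypes within a treatment, 0 of the 6 tested loci were called under control and 0 under RDS by edgeR, against 5.11% and 6.59% of all genes. At an unadjusted p under 0.05 the counts were 2 and 3, against 24.3% and 25.1% of all genes, and DESeq2 and limma-voom also called 0 in both. By the adjusted p alone 0 passed under control, against 9.90% of all genes, and 2 passed under RDS, against 11.2%. Under RDS the log2 level of LOC_Os03g08960 was 0.83 ± 0.26 higher in DTY-IL (SE, edgeR adjusted p 0.0456), with no overlap of the groups, which held for 15.9% of all genes. LOC_Os09g29460 was lower, at −0.72 ± 0.22 (SE, edgeR adjusted p 0.0405). Over the settings other than glmTreat, the adjusted p of LOC_Os03g08960 ranged from 0.0148 to 0.118 and that of LOC_Os09g29460 from 0.00480 to 0.161, so that both stood close to the threshold. With the block by description number the edgeR adjusted p was 0.0618 for LOC_Os03g08960 and 0.0153 for LOC_Os09g29460, so that 1 passed. DTY-IL drought 2 is the only library with its description number, so this block in effect leaves it out of the contrast.

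Under control the same contrast was −0.65 for LOC_Os09g29460 (95% interval −1.10 to −0.20, edgeR adjusted p 0.0653) and −0.55 for LOC_Os09g35910 (95% interval −0.95 to −0.16, edgeR adjusted p 0.0717). Over the settings other than glmTreat the adjusted p ranged from 0.0201 to 0.192 for LOC_Os09g29460 and from 0.0137 to 0.186 for LOC_Os09g35910, and both passed with DESeq2 (0.0309 and 0.0420), in the edgeR fit of the 2 groups (0.0201 and 0.0288) and with the description block (0.0324 and 0.0137). All DTY-IL control libraries lay below all Swarna control libraries for LOC_Os09g29460, which held for 17.4% of all genes. For OsHOX22 the control difference was 0.14 (95% interval −0.41 to 0.70, edgeR adjusted p 0.794), an interval that excludes a 2-fold difference. For OsHOX24 it was −0.03, with the wide interval of a locus of few counts (−1.67 to 1.60, edgeR adjusted p 0.987). Reads of both genotypes were mapped to japonica transcripts, and a difference in level and a difference in the match of the alleles to those transcripts cannot be told apart.

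DTY-IL differs from Swarna in the N22 segments, so the loci around each member were inspected for genotype calls. Among the 10 tested loci on each side by locus number, 7 of 20 were called in either genotype contrast around LOC_Os09g29460, while 9.98% of all tested loci were called. Around the other members the counts were 4 of 20 for OsHOX22, 3 of 20 for OsHOX24, 3 of 20 for LOC_Os03g10210, 2 of 20 for LOC_Os03g08960, and 1 of 20 each for LOC_Os09g35910 and LOC_Os07g39320. With 25 loci on each side it was 10 of 50 for LOC_Os09g29460 and 4 to 7 of 50 for the others. These counts are a description, with no test and no coordinates.

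The loci whose profiles over the 16 libraries were nearest to those of the called members were sought among 19091 loci with a mean of at least 1 CPM. Likeness was the root mean square (RMS) difference of log2 CPM after each profile was centred on its own mean, which takes account of the size of the response as well as its shape. The nearest to OsHOX22 were LOC_Os02g51750 (RMS difference 0.207) and LOC_Os12g41680 (0.247). LOC_Os02g51750 rose by 1.19 in DTY-IL and 1.85 in Swarna (edgeR adjusted p 0.000570 and 4.63e-06), and LOC_Os12g41680 by 1.19 and 1.83 (edgeR adjusted p 0.00105 and 1.18e-05), all on the log2 scale.

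The RMS differences were larger for OsHOX24, whose drought change was also far larger. Since the measure grows with the size of the response, they do not show that OsHOX24 was followed less closely. The nearest to OsHOX24 were LOC_Os05g05930 (RMS difference 0.491) and LOC_Os10g40040 (0.563). LOC_Os10g40040 rose from 0.392 to 65.4 CPM in DTY-IL and from 0.362 to 86.2 CPM in Swarna (edgeR adjusted p 6.74e-09 and 1.75e-09). LOC_Os05g05930 rose from 0.0316 to 21.0 CPM in DTY-IL and from 0.0538 to 27.5 CPM in Swarna (edgeR adjusted p 3.35e-09 and 1.16e-09). LOC_Os05g05930 was not among the nearest 2 with a prior count of 0.5.

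LOC_Os03g08960 was followed most closely by LOC_Os02g41650 (RMS difference 0.315) and LOC_Os06g39470 (0.336). As this choice of loci fixes the likeness, their values are a description, with log2 changes of 2.52 and 1.41 for LOC_Os02g41650 (edgeR adjusted p 3.73e-07 and 0.000102) and of 2.40 and 1.35 for LOC_Os06g39470 (edgeR adjusted p 1.45e-07 and 4.01e-05) in DTY-IL and Swarna. LOC_Os09g29460 was nearest to LOC_Os05g30160 (0.275) and LOC_Os04g20270 (0.284), with log2 changes of −0.75 and −1.05 in DTY-IL and of −1.13 and −1.30 in Swarna (edgeR adjusted p 0.00637 and 2.33e-05 in DTY-IL, 0.000119 and 1.28e-06 in Swarna). For LOC_Os03g10210, whose profile rests on few counts, LOC_Os04g32620 (0.463) and LOC_Os01g03914 (0.465) were nearest, and both gave way to other loci with a prior count of 0.5.

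**Figure D4:**
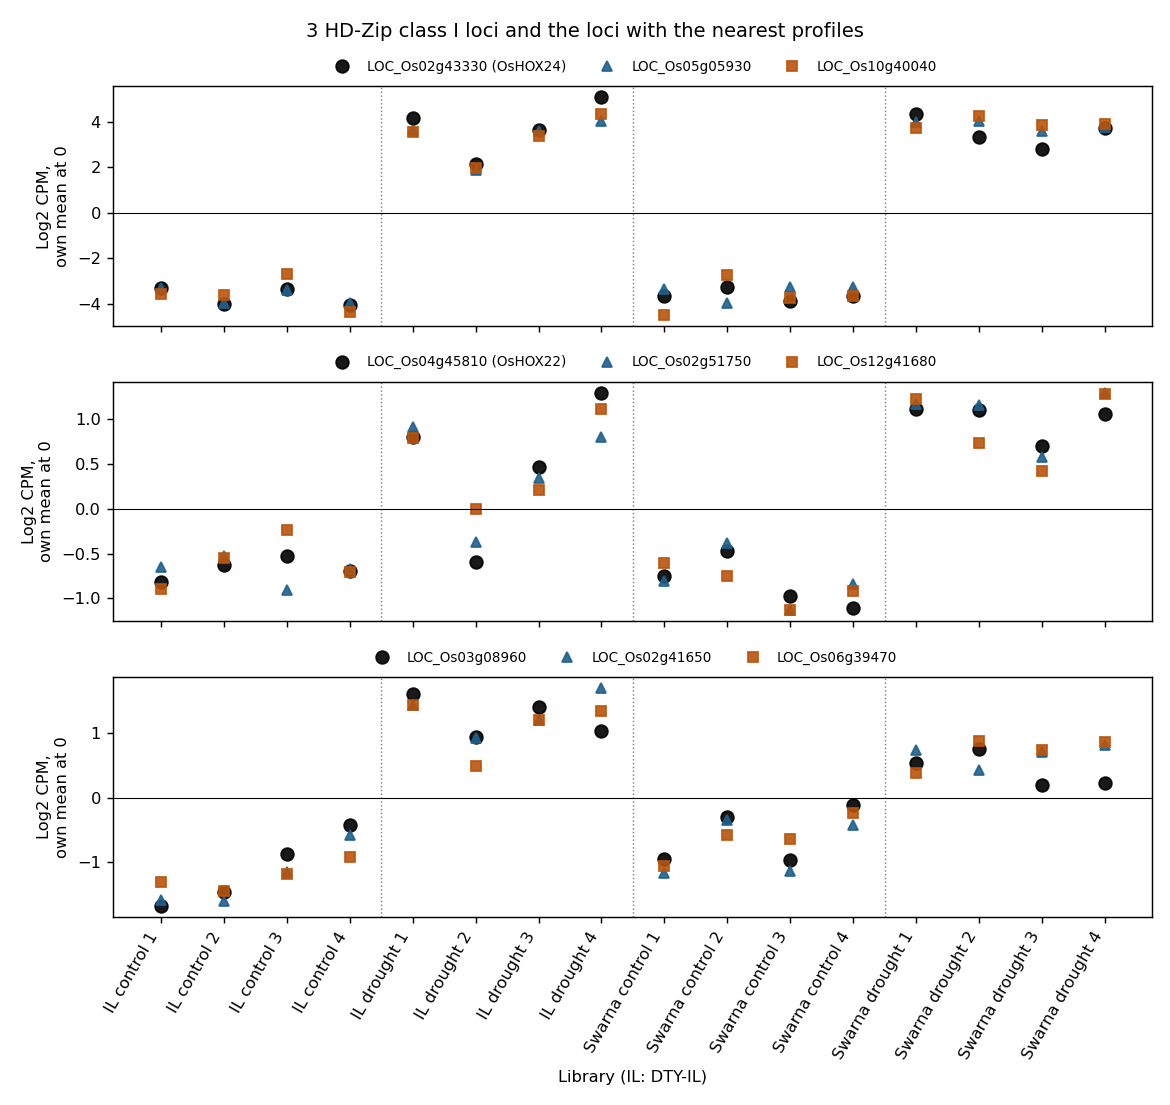
Profiles of OsHOX24, OsHOX22 and LOC_Os03g08960 over the 16 libraries (horizontal axis), each with the 2 loci of the smallest RMS difference. Values are log2 CPM with the mean of each profile at 0 (vertical axis) and each symbol is a library. The 2 loci nearest to OsHOX22 had RMS differences of 0.207 and 0.247. Those nearest to OsHOX24 had 0.491 and 0.563, over a far wider range of values.

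Among the tested members the smallest RMS difference was that of OsHOX22 and LOC_Os03g10210, at 0.594. The profile of LOC_Os03g10210 rests on few counts, and on the prior count in libraries without any, so this value says little about likeness. OsHOX22 and LOC_Os09g35910 had an RMS difference of 0.673, OsHOX22 and LOC_Os03g08960 of 0.708, and OsHOX22 and OsHOX24 of 2.95.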

How the data were processed

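The titles of the flag-leaf samples gave the genotype and treatment of each library. The authors trimmed paired-end reads with Trimmomatic, quantified transcripts with Salmon 0.7.2 with corrections for sequence and GC bias against japonica transcripts of the MSU annotation, and summed them to genes with tximport. Per locus, the deposited table gives the estimated count of the authors as a whole number, without normalization, and whether counts were scaled by transcript length is not given in the sources used here. The authors' 4 deposited contrast tables (fold changes and p-values) were not used.

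A quasi-likelihood model of the 4 groups with TMM factors was fitted to the 28283 loci of 10 or more counts in total (edgeR 4.0.16, R 4.3.3). Tests were two-sided, with Benjamini-Hochberg adjustment over all loci tested and the study's thresholds. The SE was the log2 change over the square root of the F statistic, and 95% intervals used the t distribution of the fit. Log2 CPM had a prior count of 2. A count of 0 was taken to allow 3 counts per library, which covers counting error only. On simulated data with 200 of 28283 genes changed by a log2 fold of 2, the fit recovered 195 for drought in DTY-IL, 196 for drought in Swarna, 193 in each genotype contrast and 173 for the interaction, with 3 to 8 false calls. The changed genes were drawn from well-counted loci, with as many raised as lowered. The recovery therefore does not cover loci of few counts, smaller changes or the broad drought response of the real libraries. Alternatives changed the tool (DESeq2 1.42.0, limma-voom of limma 3.58.1, glmTreat), the scaling (RLE factors, library size alone) or the call (adjusted p alone). Others changed the genes (no filter, filterByExpr, the top 20 genes removed before TMM factors were computed). The rest changed the samples and design (fits of 2 groups, a replicate block, single libraries left out). Summaries were made in Python 3.11.15.

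All 7 members were named in every comparison, and for each member called under drought the 2 nearest profiles. The description numbers run from 1 to 6 and the study's pots were laid out in complete blocks, although no label ties a number to a block. Number 4 was held by DTY-IL drought 2 alone, so the block by description number in effect leaves that library out. Number 2 was held by control libraries only and number 6 by drought libraries only. Across genes, the deviations of same-numbered libraries correlated over 0.1 in all 3 pairs by description number for the genotypes under RDS (0.147 to 0.222), and not in every pair of any other comparison or by title number. Those 3 pairs also share a title number, and the title numbering has a further pair at −0.062. Differently numbered pairs were not examined, so these values do not show that either number pairs the libraries. The members, lists and tests were chosen with earlier results of these data known. Libraries of a group were not copies (squared difference at least 12.4 times that of counting error). Other HD-Zip genes, leaf marker genes and sequences of the members were not analysed here.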

Additional observations from a re-analysis of the deposited data

Results flagged for a closer look

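OsHOX22 (LOC_Os04g45810) in Swarna drought 3 stood apart from its group, at 157 CPM against 201 to 209 CPM in the other 3 libraries. Its gap to the nearest library was 0.846 of the range of the group, over a limit of 0.829. It was the only one among 22 sets of 4 libraries examined, where chance gives about 1 in 20. Without Swarna drought 3 the log2 change of OsHOX22 in Swarna was 1.87, against 1.81 with it.

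The drought change of LOC_Os03g08960 differed between the genotypes by 1.34 on the log2 scale in the interaction test (edgeR adjusted p 0.0482). Over the settings other than glmTreat the adjusted p ranged from 0.0132 to 0.102, and the call was lost with limma-voom, library size alone, either replicate block and without any 1 of 11 libraries. The change was larger in DTY-IL in all 4 drought libraries, at 2.05 to 2.71 above the control mean against 0.78 to 1.34 in Swarna.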

How the results depend on the processing

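Of 636 recomputed values of single members, 575 kept their direction and their side of the threshold, 0 turned a call into the opposite direction, 40 lost a call and 6 gained one. The other 15 were uncalled values whose sign differed from that of the reported value, or whose reported value was 0. Among them OsHOX24 under RDS went from 0.43 to −0.14, and its interaction from 0.47 to −0.11, without DTY-IL drought 4. OsHOX24 kept its call in both genotypes under every alternative (log2 7.40 to 8.36 in DTY-IL and 7.15 to 8.15 in Swarna). The number of members called for drought in DTY-IL was 5 and became 2 with glmTreat (12.0% of all genes), and in Swarna it was 4 and became 2 with filterByExpr (35.9% of all genes), which removed LOC_Os03g10210. Without single libraries it ranged from 3 to 5 in DTY-IL, with 3 without DTY-IL control 4 or drought 4, and from 3 to 5 in Swarna. The single interaction call became 0 with library size alone, limma-voom, glmTreat and either replicate block, and ranged from 0 to 1 without single libraries. Under RDS the 0 genotype calls became 2 with the adjusted p alone. LOC_Os03g08960 in Swarna was under the fold threshold with RLE factors (0.96), DESeq2 (0.97), a fit of the 2 groups (0.97) and filterByExpr (0.999), and glmTreat did not call it (adjusted p 0.598).

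Deviations of same-numbered libraries correlated over 0.1 across genes in 7 of 16 pairs by title and in 6 of 12 pairs by description. The description pairs of the genotypes under RDS were title pairs as well. Differently numbered pairs were not examined, so whether either number pairs the libraries was not settled. The replicate block in edgeR ended the interaction call of LOC_Os03g08960 (adjusted p 0.0658 by title and 0.0524 by description) and changed no other call of a member. Without single libraries OsHOX22 minus LOC_Os03g08960 in Swarna ranged from 0.556 to 0.955, the former without Swarna control 4, and LOC_Os03g08960 minus LOC_Os09g35910 from 0.564 without Swarna control 1 to 1.01 without Swarna control 4. The nearest profile of OsHOX24 and LOC_Os03g10210 was another locus with a prior count of 0.5 (RMS difference 0.629 and 0.773), as was that of LOC_Os09g29460 with a mean of at least 5 CPM (0.284). Depth limits LOC_Os03g10210 and LOC_Os07g39320.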
